A study of Mus musculus with 16 samples.

Results

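The *Myc* gene desert is the part of mouse chromosome 15 around *Myc*, and its members were the peaks of the 4 stage lists in a window from 500 kb upstream of *Myc* to 2 Mb downstream of it, *Pvt1* included (chr15:61485391-63990374, mm10, genes of GENCODE M21). A peak was a member where it shared at least 1 bp with the window. These were 125 of 150139 DN peaks, 120 of 107110 DP peaks, 139 of 115074 SP4 peaks and 121 of 104411 SP8 peaks. Peaks that shared at least 1 bp were merged across stages, which gave 203 regions of 185978 in all, and a region counted as called at the stages whose peaks it held. ATAC-seq, in which a transposase places sequencing adapters into accessible DNA, was performed on thymocytes of 4 mice in 16 libraries, 4 for each stage. The mice were wild type C57BL/6J, 9 weeks old, and untreated. Cells were sorted by flow cytometry as DN (Lin-CD4-CD8-CD3-), DP (Lin-CD4+CD8+), SP4 (Lin-CD4+CD8-CD3+) and SP8 (Lin-CD4-CD8+CD3+). Peaks were called by the authors on the pooled reads of the 4 mice of a stage, so no value has a replicate error, no test between stages was possible, and a region without a peak may hold signal under the threshold.

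*Myc* encodes a transcription factor that drives cell growth and division, and DN thymocytes that have passed β-selection need it to proliferate. *Pvt1* is a long noncoding RNA gene downstream of *Myc*, and enhancers that act on *Myc* in different tissues are spread over the gene-poor DNA on both sides. Among them, N-Me is a Notch-dependent enhancer known from T cell progenitors and T cell leukaemia, and BENC is a cluster of enhancers known from blood stem and progenitor cells.

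The window was divided into zones by distance from the *Myc* TSS, with downstream distances positive. After the upstream zone came the *Myc* zone, from -2 kb to +6.98 kb, and the *Pvt1* zone, which ended at +395 kb, 2 kb past the end of *Pvt1*. The proximal desert reached to +1200 kb, the N-Me zone to +1400 kb, the mid desert to +1600 kb, the BENC zone to +1800 kb, and the distal desert to the end of the window. N-Me and BENC were placed in their zones from general knowledge and were not matched by sequence. GENCODE M21 lists 35 genes of any type in the window, of which 6 are protein coding (*Myc*, *Gsdmc*, *Gsdmc2*, *Gsdmc3*, *Gsdmc4* and *Fam49b*) and 10 are lincRNA genes. Between the end of *Myc* and *Gsdmc* lie 1786 kb with 0 protein coding genes. The lincRNA gene *Gm41335* (chr15:63176838-63718289, minus strand) spans the N-Me zone, the mid desert and much of the BENC zone, so most regions there are intronic to it.

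Sequence is shown for 10 regions, picked with their values known for their differences between stages or their height, as 200 bp around the summit of the highest peak, on the plus strand of mm10. Regions are named by the distance of this summit from the *Myc* TSS. Capitals mark matches, on either strand, to RBPJ (GTGGGAA), RUNX (TGTGGTT), ETS (CCGGAAG or ACAGGAA), E protein (CAGCTG or CAGGTG), factors of the GATA family (AGATAA), TCF7/LEF1 (ATCAAAG), PU.1 (GAGGAAG), STAT (TTCNNNGAA), EGR (GCGTGGG), ROR (AGGTCA) or MYC/MAX (CACGTG), and the CTCF consensus was also searched. A match describes the letters of the window and does not show that a factor binds there.

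The regions shown from the *Pvt1* zone and from upstream differ in stage. The -438.5 kb region (window chr15:61546746-61546945) was called at SP4 and SP8 only and lies in an intron of the lincRNA gene *D030024E09Rik*. At +40.0 kb (chr15:62025288-62025487) lies an intergenic region between *Myc* and *Pvt1* that was chosen after its values were seen. The +52.4 kb region covers the *Pvt1* TSS, but its summit window (chr15:62037673-62037872) ends upstream of that TSS, and the +227.1 kb (chr15:62212377-62212576) and +365.7 kb regions (chr15:62350982-62351181) are intronic to *Pvt1*. No match was found in the +52.4 kb window, and the +227.1 kb window held 5 E protein matches.
-438.5 kb: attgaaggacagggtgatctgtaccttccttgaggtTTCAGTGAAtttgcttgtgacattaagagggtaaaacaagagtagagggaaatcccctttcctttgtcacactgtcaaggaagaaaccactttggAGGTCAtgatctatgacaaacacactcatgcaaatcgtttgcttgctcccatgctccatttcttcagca
+40.0 kb: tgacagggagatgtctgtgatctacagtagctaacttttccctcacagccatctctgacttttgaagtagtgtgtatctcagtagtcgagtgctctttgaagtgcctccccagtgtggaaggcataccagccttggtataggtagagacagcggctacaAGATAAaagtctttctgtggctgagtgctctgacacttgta
+52.4 kb: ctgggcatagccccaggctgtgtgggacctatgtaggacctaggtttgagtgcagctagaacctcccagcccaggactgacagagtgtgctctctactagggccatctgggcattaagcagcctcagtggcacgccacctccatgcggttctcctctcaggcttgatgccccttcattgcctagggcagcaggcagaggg
+227.1 kb: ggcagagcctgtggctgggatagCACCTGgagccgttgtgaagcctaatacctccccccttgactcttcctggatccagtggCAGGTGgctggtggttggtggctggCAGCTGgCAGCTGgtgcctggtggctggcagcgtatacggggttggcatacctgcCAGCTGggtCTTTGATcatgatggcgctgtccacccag
+365.7 kb: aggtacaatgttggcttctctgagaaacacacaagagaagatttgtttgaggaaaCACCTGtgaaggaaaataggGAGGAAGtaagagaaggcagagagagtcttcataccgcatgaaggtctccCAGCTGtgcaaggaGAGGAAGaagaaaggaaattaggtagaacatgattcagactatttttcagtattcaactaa

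From the desert, the +745.3 kb region (chr15:62730617-62730816), intronic to the lincRNA gene *Gm41333*, is shown because it was high at every stage. The next 2, the +1294.5 kb (chr15:63279785-63279984) and +1302.0 kb regions (chr15:63287338-63287537), are from the N-Me zone and intronic to *Gm41335*. The +1481.7 kb region (chr15:63466998-63467197) is from the mid desert and the +1626.0 kb region (chr15:63611246-63611445) from the BENC zone, both intronic to *Gm41335*. In the +1302.0 kb window were 1 RUNX and 1 E protein match, and in the +1481.7 kb window 4 E protein matches, 1 TCF7/LEF1 match and 1 PU.1 match. RBPJ letters were found in 0 of the 10 windows, a number too small to tell from the 4.62% of all regions with a match.
+745.3 kb: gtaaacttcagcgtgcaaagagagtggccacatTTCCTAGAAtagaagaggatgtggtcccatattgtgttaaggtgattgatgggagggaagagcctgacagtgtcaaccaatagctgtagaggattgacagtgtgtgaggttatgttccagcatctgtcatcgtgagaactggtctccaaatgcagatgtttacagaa
+1294.5 kb: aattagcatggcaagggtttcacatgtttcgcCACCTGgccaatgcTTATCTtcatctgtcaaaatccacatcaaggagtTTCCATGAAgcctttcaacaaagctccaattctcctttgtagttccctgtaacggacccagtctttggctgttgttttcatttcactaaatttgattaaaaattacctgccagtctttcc
+1302.0 kb: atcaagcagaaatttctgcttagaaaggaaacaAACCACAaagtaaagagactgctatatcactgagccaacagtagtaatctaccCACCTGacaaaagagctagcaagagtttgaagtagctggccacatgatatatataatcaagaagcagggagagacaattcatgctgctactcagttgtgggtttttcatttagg
+1481.7 kb: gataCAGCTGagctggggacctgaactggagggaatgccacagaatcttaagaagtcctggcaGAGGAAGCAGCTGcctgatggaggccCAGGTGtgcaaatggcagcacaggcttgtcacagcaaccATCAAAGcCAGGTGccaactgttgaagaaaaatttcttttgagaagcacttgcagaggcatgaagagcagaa
+1626.0 kb: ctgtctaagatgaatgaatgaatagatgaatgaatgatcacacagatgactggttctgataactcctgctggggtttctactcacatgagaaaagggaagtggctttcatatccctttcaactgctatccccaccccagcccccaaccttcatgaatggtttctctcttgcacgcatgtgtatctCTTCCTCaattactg

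Peak height is stated as the deposited fold enrichment, a ratio of signal to local background, and as the percentile of this value among the peaks of the same stage. The lists differ in length, from 150139 peaks at DN to 104411 at SP8, so a percentile depends in part on its list. Heights were not ranked again in lists of equal length. Where a stage had several peaks in a region, the highest was taken. Counts of called regions are to be read beside the shares of all 185978 regions called, which were 75.7% (DN), 53.9% (DP), 58.3% (SP4) and 53.0% (SP8). These shares hold for the full lists only. With equal numbers of peaks per list (104411 each), the merged regions were others, 156301 in all and 181 in the window. Zone counts from those lists have no share of all regions beside them and are not to be read against the shares above.

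Around the *Myc* TSS the chromatin was open at all 4 stages, at middling height. The region on the TSS (+0.2 kb, chr15:61985337-61985723) had a fold enrichment of 5.29 (DN), 6.77 (DP), 5.93 (SP4) and 5.41 (SP8), at percentiles 46.5, 60.1, 50.5 and 43.3. It was thus highest at DP by both measures, and lowest at DN by fold enrichment and at SP8 by percentile. By q-value the same region ranked higher, at percentiles 80.5, 86.0, 78.6 and 75.4, with DP again first and SP8 last. Of the 8 regions of the *Myc* zone, 5 were called at DN and 7 at DP, against 7 at SP4 and 8 at SP8. Just upstream, the -0.4 kb region (chr15:61984855-61985244), chosen after its values were seen, was highest at DN, with a fold enrichment of 7.97 against 4.31 (DP), 4.62 (SP4) and 5.04 (SP8). The +1.4 kb region (chr15:61986692-61987711), on a second annotated *Myc* TSS, was lower, at percentiles 25.2 (DN), 35.9 (DP), 18.2 (SP4) and 22.3 (SP8), but by q-value at 69.1, 73.1, 59.4 and 61.6. The -1.9 kb region, the highest of the zone by mean percentile, reached percentiles 43.3, 54.7, 64.5 and 51.8 in the same order, and 78.2, 82.7, 87.2 and 80.5 by q-value. The 2 measures thus place these regions at different heights.

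At the *Pvt1* TSS the stages were close to each other. Percentiles of the +52.4 kb region (chr15:62037676-62039270) were 60.9 (DN), 62.8 (DP), 67.4 (SP4) and 61.4 (SP8). The body of *Pvt1* (chr15:62037986-62378096) held 56 regions, of which 27 were called at DN and 25 at DP, against 41 at SP4 and 33 at SP8. These are 48.2% (DN), 44.6% (DP), 73.2% (SP4) and 58.9% (SP8), so DN lay under its share of all regions and SP4 above it. With equal numbers of peaks per list, the *Pvt1* zone had 22 (DN), 28 (DP), 39 (SP4) and 36 (SP8) regions called. Between *Myc* and *Pvt1*, the +40.0 kb region (chr15:62025116-62025559) separated the SP stages from the earlier ones. Its fold enrichment was 37.8 at SP4 and 39.4 at SP8, the highest value of the window at each of these stages, against 4.66 at DN and 7.02 at DP. It stood at percentile 99.9 at both SP stages, at 38.6 at DN and at 61.8 at DP.

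Within *Pvt1*, single regions were high at different stages. The +227.1 kb region (chr15:62212187-62212759) fell off after DP, with fold enrichments of 26.3 (DN), 17.9 (DP), 3.56 (SP4) and 4.80 (SP8). The +365.7 kb region (chr15:62350821-62351275) was called at DN and DP only, at percentiles 91.9 and 90.8. At +196.3 kb (chr15:62181327-62182001) percentiles were 75.3 (DN), 97.4 (DP), 31.8 (SP4) and 87.3 (SP8), so SP4 stood apart. At +192.5 kb (chr15:62177649-62178103), 72 bp from a TSS of a *Pvt1* transcript, DP stood apart instead, with a percentile by q-value of 21.4 against 77.3 (DN), 75.7 (SP4) and 73.4 (SP8). These last 2 regions and the +227.1 kb region had the widest range of percentile among the regions called at all 4 stages. The highest DP-only region of the window also lay in *Pvt1*, at +144.1 kb (chr15:62129315-62129654, percentile 85.3). Highest of the zone over the 4 stages was the +179.6 kb region (chr15:62164655-62165177), at percentiles 95.2, 95.7, 90.3 and 89.8 from DN to SP8.

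**Figure D1:**
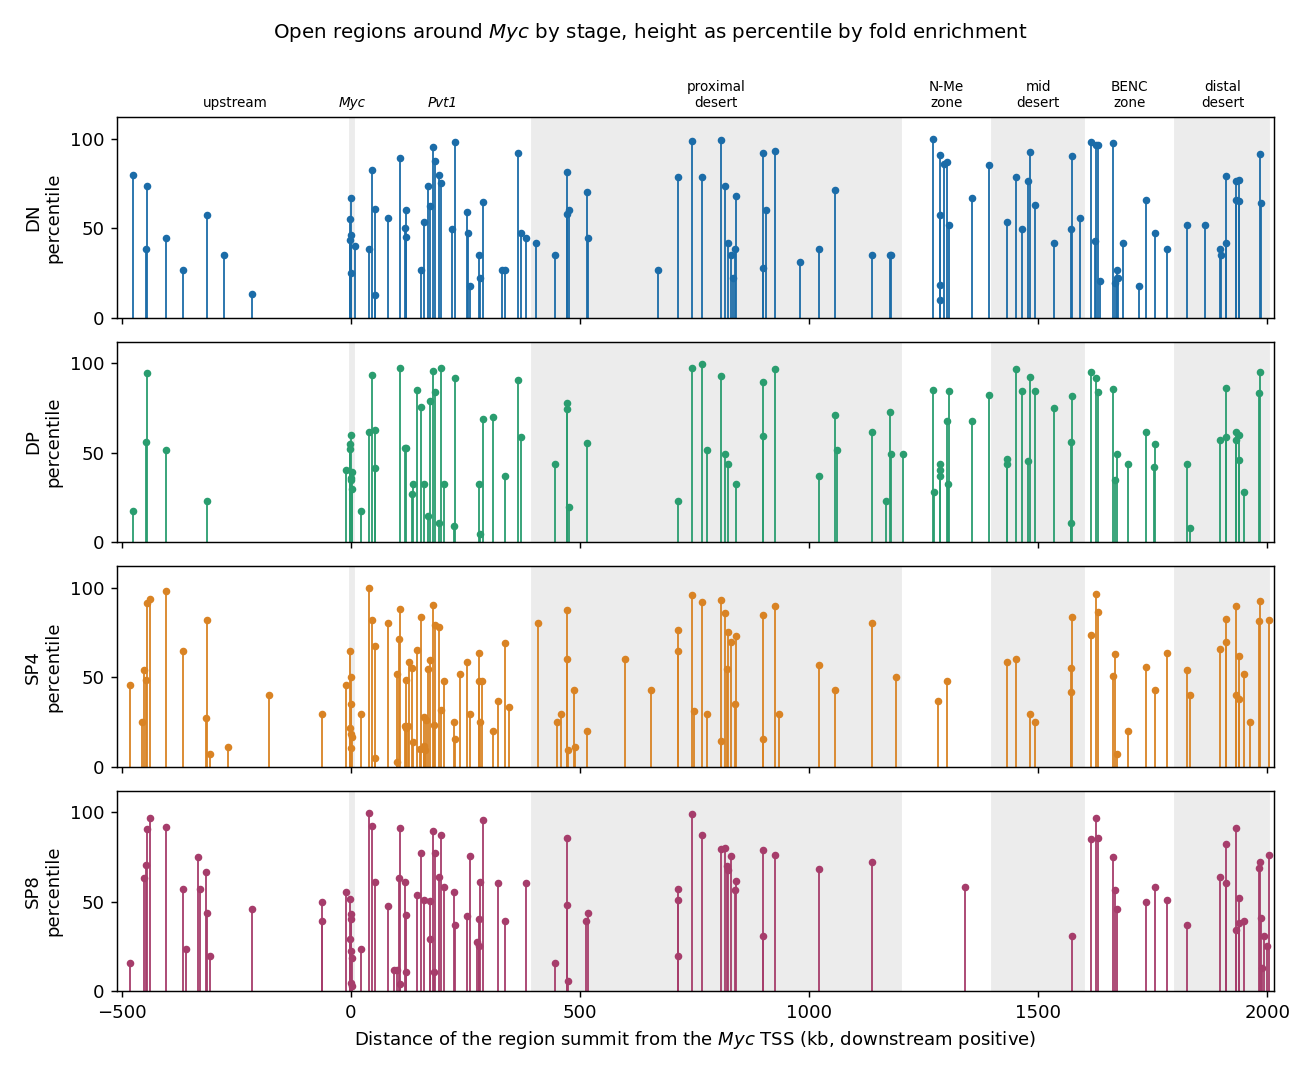
Summits of the regions called at each stage (DN, DP, SP4 and SP8, from top to bottom), by distance from the *Myc* TSS in kb, with the percentile by fold enrichment within the list of the stage on the y axis; shaded and white bands are the zones. At SP8, 2 regions were called between +1200 and +1600 kb, against 20 at DN, 22 at DP and 9 at SP4.

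The upstream zone held more regions at the SP stages. Of its 23 regions, 8 were called at DN and 6 at DP, against 15 at SP4 and 17 at SP8, and DN was furthest under its share of all regions (34.8% against 75.7%). With equal numbers of peaks per list, 4 were called at DN and 6 at DP, so the order of these stages changed. The -438.5 kb region (chr15:61546648-61547006), called at SP4 and SP8 only, stood at percentiles 93.9 and 96.8. At -444.1 kb (chr15:61540756-61541434) lies a region called at all 4 stages, lowest at DN with percentile 73.9, against 94.4 (DP), 91.8 (SP4) and 91.0 (SP8). The highest SP8-only region of the window was also upstream, at -333.9 kb (chr15:61651268-61651601, percentile 75.1). From -307.5 to -63.5 kb, 7 neighbouring regions in a row were not called at DP, the longest such run for that stage.

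In the proximal desert, 47 regions spanned 805 kb, and 28 were called at DN and 23 at DP, against 33 at SP4 and 23 at SP8. DN (59.6%) was under its share of all regions. With equal numbers of peaks per list its count fell to 15 while the DP count was again 23, so the order of these stages changed here too. The +745.3 kb region (chr15:62730477-62730944) was in the top 5 percent of each list by fold enrichment, with values of 28.3 (DN), 24.7 (DP), 24.1 (SP4) and 31.4 (SP8). By q-value it stood at percentiles 99.3 (DN), 91.8 (DP), 93.2 (SP4) and 96.8 (SP8). The highest SP4-only region of the window, at +407.7 kb (chr15:62392774-62393469), reached percentile 80.3. At +830.5 kb (chr15:62815847-62816053) percentiles were 35.1 at DN, 70.0 at SP4 and 75.8 at SP8, with no peak at DP.

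The N-Me zone was open at DN and DP and nearly without peaks at the SP stages. Of its 15 regions, 10 were called at DN and 11 at DP, against 2 at SP4 and 1 at SP8, and none at all 4 stages. With equal numbers of peaks per list the counts were 8 (DN), 11 (DP), 2 (SP4) and 1 (SP8). Its +1270.6 kb region, on the TSS of a lincRNA gene, had a fold enrichment of 34.6 at DN, the highest DN value of the window, at percentile 99.8. At DP the value was 13.8 (percentile 85.1), and no peak was called at SP4 or SP8. The +1294.5 kb region (chr15:63279735-63280213) was the highest DN-only region of the window (fold enrichment 14.0, percentile 86.1). The +1302.0 kb region (chr15:63287241-63287618) stepped down from percentile 87.0 at DN to 68.0 at DP and 47.8 at SP4, and was not called at SP8. At +1392.1 kb (chr15:63377295-63377596) DN and DP were close, at percentiles 85.2 and 82.5, with no peak at SP4 or SP8. The median percentile of the regions called in the zone was 76.1 at DN and 49.1 at DP, over partly different regions and in lists of different length.

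In the mid desert, 10 of 12 regions were called at DN and 11 at DP, against 7 at SP4 and 1 at SP8. The highest fold enrichment here was at DP, 22.9, in the +1450.9 kb region. This region (chr15:63436136-63436508) stood at percentile 78.4 at DN, 96.6 at DP and 60.0 at SP4. The +1481.7 kb region (chr15:63466732-63467337) had a fold enrichment of 18.1 at DN, 18.4 at DP and 4.27 at SP4. The region that SP8 kept, at +1574.1 kb (chr15:63559144-63559709), fell from percentiles 90.3 (DN), 81.5 (DP) and 83.5 (SP4) to 31.0 at SP8. The median percentile of the regions called was 59.4 at DN, 75.3 at DP and 55.2 at SP4, again over partly different regions and in lists of different length.

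The N-Me zone and the mid desert had the lowest shares of regions called at SP8 of all zones (6.67% and 8.33%). They were planned as separate zones, so values for both together follow in part from the choice to join them. Over the N-Me zone and the mid desert together, 25 of 27 regions were called at DN or DP (92.6%, against 84.6% of all regions) and 10 at SP4 or SP8 (37.0% against 67.5%), so the larger difference from all regions was at the SP stages. DN and DP shared 17 of the 27, against 45.0% of all regions. Called at DN and DP with no peak at SP4 or SP8 were 11 of the 27 (40.7%, against 5.59% of all regions). Among the shared 17 DN had the higher percentile in 9 and DP in 8, while over all shared regions DN was higher in 49946 and DP in 33833. The +1481.7 kb region was higher at DN by percentile (92.6 against 92.5) but at DP by fold enrichment (18.4 against 18.1). By fold enrichment the tally therefore turns, and it does not set DN above DP. The longest run of neighbouring regions without an SP8 peak held 16 regions, from +1167.8 to +1306.5 kb, of which 10 were called at DN, 12 at DP and 3 at SP4. Between the SP8 peaks at +1339.7 and +1574.1 kb lay 234 kb without another, the longest SP8 gap of the window.

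The BENC zone, further downstream, held 8 regions called at all 4 stages. Of its 17 regions, 15 were called at DN and 10 at DP, against 10 at SP4 and 9 at SP8. For DP (58.8%), SP4 (58.8%) and SP8 (52.9%) these are near the shares of all regions. The +1626.0 kb region (chr15:63611019-63611533) stood at percentiles 96.5 (DN), 92.0 (DP), 96.7 (SP4) and 96.9 (SP8). At +1616.3 kb (chr15:63601268-63601874) and +1663.0 kb (chr15:63647745-63648608), both chosen after their values were seen, DN was highest. Fold enrichments were 25.3, 20.8, 10.4 and 15.5 at the former and 23.9, 14.1, 5.97 and 11.6 at the latter, from DN to SP8. Not all regions of the zone called at all 4 stages had DN highest. At +1667.4 kb DN was lowest (3.60, 4.30, 7.94 and 7.10 from DN to SP8), and at +1755.4 kb SP8 was highest (7.42 against 5.32 at DN). The 6 DN-only regions of the zone were low, at percentile 42.9 or less. With equal numbers of peaks per list, 8 regions of the zone were called at DN and 10 at DP.

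The distal desert held 20 regions, with 12 called at DN and 12 at DP, against 14 at SP4 and 16 at SP8. Highest over the stages was the +1983.9 kb region (chr15:63969111-63969452), intronic to *Fam49b*, at percentiles 91.7 (DN), 95.2 (DP), 92.8 (SP4) and 72.3 (SP8). The +2004.5 kb region (chr15:63989674-63990015), called at SP4 and SP8 only, was the last in the window, with percentiles 82.1 and 76.1.

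**Figure D2:**
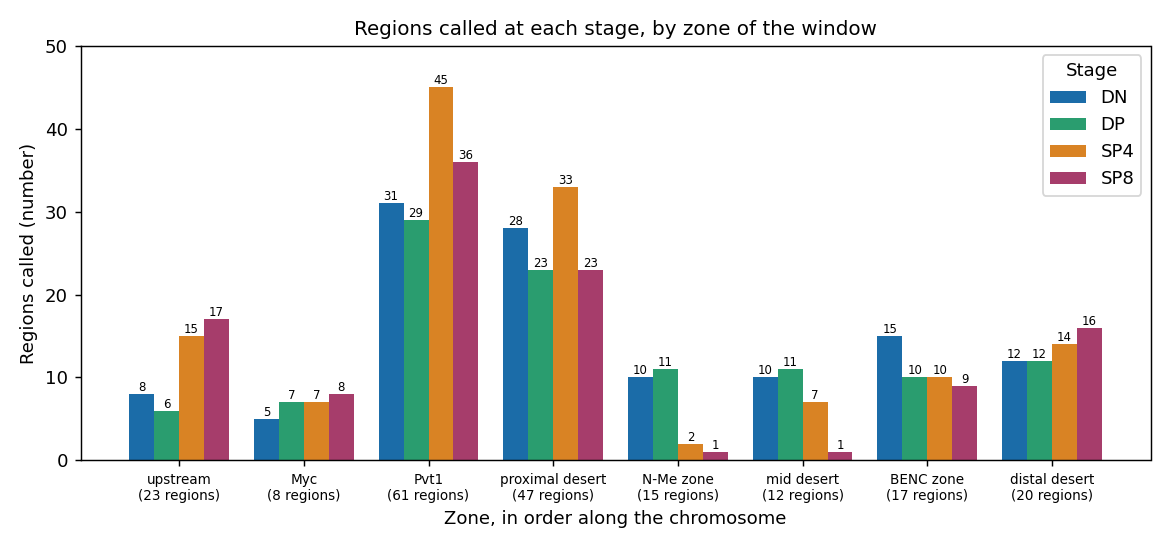
Number of regions called at each stage (bars, by colour) in each zone of the window, in order along the chromosome; the total of regions called at any stage stands under each zone. SP4 and SP8 have 2 and 1 regions in the N-Me zone, where DN and DP have 10 and 11, while in the *Pvt1* zone SP4 has the most, 45.

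By the rule for named regions, 35 regions were chosen by height and by stage class, so the number called at each stage follows in part from the rule.

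**Figure D3:**
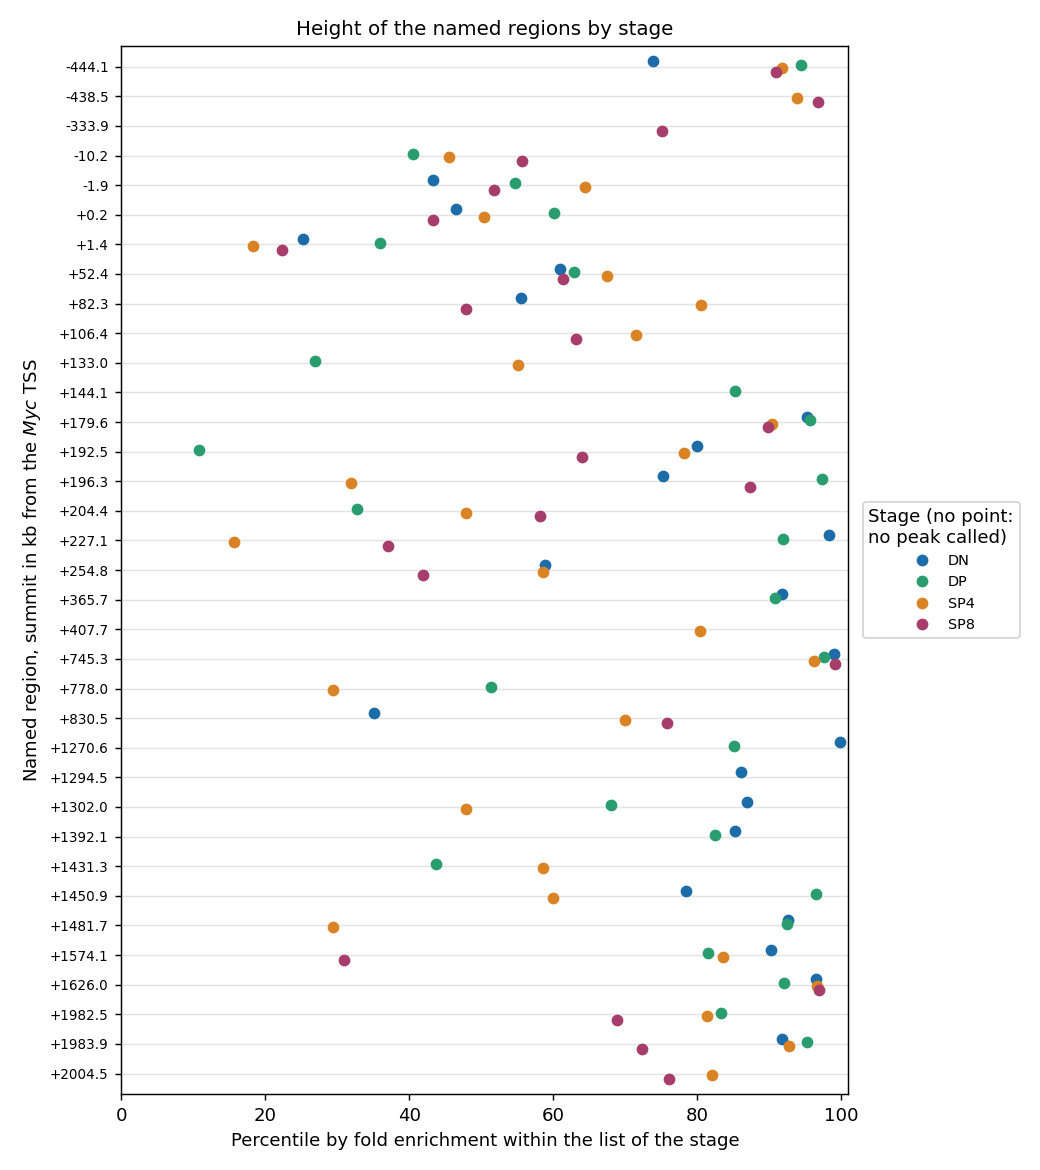
Percentile by fold enrichment (x axis) of the 35 named regions at each stage (points, by colour), ordered by distance of the summit from the *Myc* TSS in kb (y axis); a missing point means that no peak was called. The +1270.6 kb region has points at DN (99.8) and DP (85.1) alone, and the +745.3 kb region has all 4 points above 96.

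Counted over the whole window, DN was called least often in relation to its list. Of the 203 regions, 119 were called at DN, which is 58.6% (95% Wilson interval 51.7 to 65.2%), against 75.7% of all regions. At DP 109 were called (53.7%, 46.8 to 60.4%), against 53.9% of all regions, and at SP4 133 (65.5%, 58.7 to 71.7%), against 58.3%. At SP8 111 were called (54.7%, 47.8 to 61.4%), against 53.0%. Such intervals cover counting error only, and neighbouring regions are not independent of each other. The window held 49.9 DN peaks per Mb, against 61.0 over the autosomes (ratio 0.819). The ratio was 1.10 at DP (47.9 against 43.5), 1.19 at SP4 (55.5 against 46.7) and 1.14 at SP8 (48.3 against 42.4). The rest of chromosome 15 held 61.3 (DN), 47.4 (DP), 51.2 (SP4) and 45.9 (SP8) peaks per Mb. At DP, SP4 and SP8 the window was thus closer to its own chromosome than to the autosomes, while at DN it lay under both. Heights in the window were similar to those of the lists, with a median fold enrichment of 5.77 against 5.56 at DN, 5.67 against 5.45 at DP, 5.93 against 5.93 at SP4 and 6.38 against 6.11 at SP8.

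Among the classes by stage, 57 regions were called at all 4 stages (28.1%, 22.3 to 34.6%), against 34.1% of all regions. DN-only regions numbered 22 (10.8%, 7.27 to 15.9%), against 21.7% of all regions, and DP-only regions 9 (4.43%, 2.35 to 8.21%), against 5.17%. SP4-only regions numbered 29 (14.3%, 10.1 to 19.8%), against 7.39% of all regions, and SP8-only regions 15 (7.39%, 4.53 to 11.8%), against 4.21%. The class called at DN and DP only had 17 regions (8.37%, 5.29 to 13.0%), against 5.59%, and that called at SP4 and SP8 only had 16 (7.88%, 4.91 to 12.4%), against 3.82%. Of the 29 SP4-only regions, 12 lay in the *Pvt1* zone and 11 in the proximal desert. With equal numbers of peaks per list, 7 of 181 regions of the window were DN-only (3.87%, 1.89 to 7.77%), against 11.1% of all regions merged from these lists, and 14 were DP-only (7.73%, 4.66 to 12.6%), against 8.12%.

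**Figure D4:**
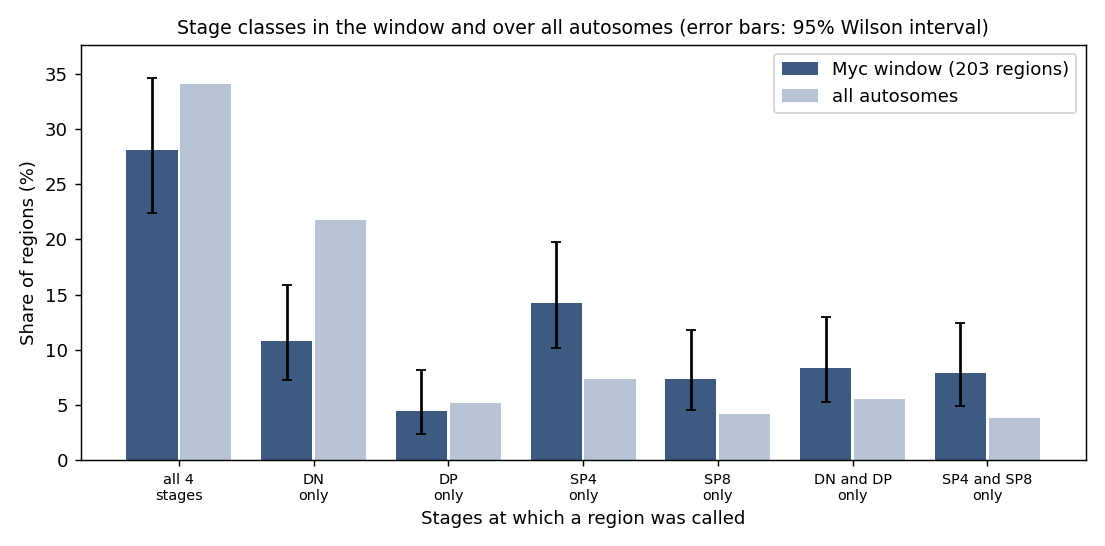
Share of regions (y axis, percent) called at the stages named under each pair of bars, in the window (dark, 203 regions, error bars are 95% Wilson intervals for counting error) and over all autosomes (light, 185978 regions). DN-only regions are 10.8% in the window and 21.7% over all, and SP4-only regions 14.3% and 7.39%.

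From stage to stage, 85 of the 119 DN regions were also called at DP (71.4%, 62.7 to 78.8%), against 59.5% of all DN regions. Of the 109 DP regions, 80 were also called at SP4 (73.4%, 64.4 to 80.8%), against 74.6% of all DP regions. At SP8 it was 68 (62.4%, 53.0 to 70.9%), against 71.9%. Percentiles are ranks in lists of different length, so the counts below do not by themselves show a rise or fall in signal. Where a region was called at both stages, its percentile was higher at DP than at DN in 43 and lower in 42, while over all regions it was higher in 33833 and lower in 49946. It was higher at SP4 than at DP in 37 and lower in 43, against 38467 and 36327 over all regions, and higher at SP8 than at DP in 34 and lower in 34, against 35117 and 36978. Between the SP stages, it was higher at SP8 than at SP4 in 34 and lower in 55, against 36975 and 44320 over all regions. Of the 57 regions called at all 4 stages, 19 had their highest percentile at DN, against 35.0% of all such regions, and 14 at DP, against 21.5%. SP4 was highest in 16, against 23.8%, and SP8 in 8, against 19.7%.

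Most regions of the window lay outside exons and promoters. Of the 203, 182 (89.7%) overlapped neither an exon nor the 200 bp upstream of a TSS, against 77.5% of all regions. Regions called at all 4 stages were the widest, with a median of 515 bp, against 280 bp for those called at 2 or 3 stages and 151 bp for single-stage regions. Over all autosomes the same medians were 465, 229 and 141 bp. The summit windows were poorer in G and C than those of all regions, with a median of 47% against 51%.

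The letters of 12 motifs were counted in 200 bp around each summit, beside the share of all 185978 regions with a match in a window of that length. E protein letters were the most common, in 69 of 203 windows (34.0%, 27.8 to 40.7%), against 37.0% of all regions. Regions called at DN, DP or both only held them in 25 of 48 windows, against 48.5% of all regions of these classes. Regions called at SP4, SP8 or both only held them in 10 of 60, against 20.8%. In the N-Me zone 8 of 15 windows and in the mid desert 7 of 12 had an E protein match. Many regions of these zones were called at DN, DP or both only, and the numbers are too small to tell from the 48.5% of such regions. TCF7/LEF1 letters were found in 19 windows (9.36%, 6.07 to 14.2%), against 4.15% of all regions. PU.1 letters were in 40 windows (19.7%, 14.8 to 25.7%), against 13.4%, and STAT letters in 21 (10.3%, 6.87 to 15.3%), against 5.39%. ETS letters were in 34 windows (16.7% against 17.4%), RUNX letters in 17 (8.37% against 10.3%) and GATA letters in 19 (9.36% against 8.07%). ROR letters were in 22 windows (10.8% against 9.46%) and EGR letters in 2 (0.985% against 1.91%). The RBPJ letters were in 5 windows (2.46%, 1.06 to 5.64%), against 4.62%, of which 1 lay in the N-Me zone, at +1355.2 kb. The CTCF consensus was in 1 window, against 3.03% of all regions. The MYC/MAX letters were in 0 of 203 windows, which allows a share of up to 1.48% (3 counts of the total, not a Wilson limit), against 4.31% of all regions.

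*Myc* acts with a network of related factors, among them its partner *Max*, the MXD proteins that compete for MAX, and the MLX branch. All 14 genes of this network had a promoter peak, at the TSS or in the 200 bp upstream, at all 4 stages, and 13 of them with RefSeq TSSs. Of 20807 protein coding genes on the autosomes, the share with one was 65.7% (DN), 61.3% (DP), 59.6% (SP4) and 59.7% (SP8). *Mxd1*, which encodes a repressor that binds MAX, was the highest, at percentiles 98.4 (DN), 97.6 (DP), 97.7 (SP4) and 97.9 (SP8), and *Mycn*, a paralogue of *Myc*, was the lowest at DN (23.2), DP (45.7), SP4 (27.7) and SP8 (22.9). The highest promoter peak of *Myc* itself stood at percentiles 66.8 (DN), 60.1 (DP), 50.5 (SP4) and 43.3 (SP8), but the DN value is that of the -0.4 kb region and the other 3 are those of the +0.2 kb region, which was highest at DP. *Mlxipl*, which encodes a glucose-responsive partner of MLX, was highest at DN, with fold enrichments of 9.85, 9.35, 6.74 and 4.86 from DN to SP8, while its paralogue *Mlxip* had the reverse order, from 10.4 at DN to 14.1 at SP4 and 16.2 at SP8, with DP between DN and SP4. The percentile of *Max* was between 93.5 and 94.5. The median over the 14 genes was 75.9 (DN), 76.2 (DP), 79.4 (SP4) and 79.1 (SP8).

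Promoter peaks at markers were checked against the stage labels. Of 6 T lineage genes, 5 had one at DN and at DP, and 6 at SP4 and at SP8, *Bcl11b* having none at DN and DP. *Rag1*, needed for receptor gene recombination, had fold enrichments of 13.3 (DN), 15.9 (DP), 8.19 (SP4) and 7.02 (SP8), and *Rag2*, its partner, was also highest at DP. Other genes of the DP list went the other way, with *Cd8b1* at 22.1 (DN) and 15.1 (DP), *Cd8a* at 8.89 and 6.17, and *Cd4* at 4.58 and 3.47, so the list as a whole did not set DP apart. *Zbtb7b*, which directs the CD4 fate, had a promoter peak at SP4 alone (6.77), and *Nkg7*, a gene of cytotoxic cells, had one at DN (7.29) and SP8 (13.9). *Cd8a*, also of the SP8 list, was higher at SP8 (10.2) than at SP4 (3.74). Against the labels, *Cd4* was lower at SP4 (3.56) than at DN (4.58). *Runx3*, of the SP8 list, had a peak at all 4 stages and was slightly higher at SP4 (23.2) than at SP8 (22.1). All 4 DN markers and all 4 SP markers had a promoter peak at every stage, and their heights did not all follow the labels. The DN marker *Il2ra* stood at percentiles 84.8 (DN), 92.2 (SP4) and 93.4 (SP8), and *Dtx1* at 8.29, 78.9 and 73.9. *Kit* was also highest at SP8 (93.6, against 86.5 at DN), while *Hes1* was highest at DN (72.3). SP markers higher at DN than at SP8 were *Ccr7* (98.3 and 90.8), *Il7r* (91.9 and 74.3) and *Klf2* (90.4 and 89.1). *S1pr1* was higher at SP8 (78.6) than at DN (62.7). Members of both lists thus went both ways, so these lists did not tell the stages apart. *Cd40lg* is X-linked, and the lists hold no peak on the X chromosome. Of the markers of other cells, 0 of *Cd79a*, *Csf1r*, *Hbb-bt*, *Klf1*, *Foxn1* and *Krt5* had a promoter peak at any stage. *Pax5* had one at DN (16.6) and DP (16.2), *Lyz2* at DN (15.2) and *Epcam* at DN (10.0), DP (6.78) and SP8 (8.86). *Itgam* had one at all 4 stages, and the part of other cells in the calls of the window was not tested.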

How the data were processed

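ATAC-seq peaks of DN, DP, SP4 and SP8 thymocytes were analysed as 4 lists, 1 per stage. By the authors, reads were trimmed, mapped to mm10 by BWA, freed of duplicates, reduced to the median library depth, pooled over the 4 mice of a stage and used for peak calling in MACS2 (version not given in the sources used here). Fold enrichment, a ratio over the local background, was computed by the authors. Each −log10 q-value is as deposited, at least 1.30 in every list. The summit position was deposited with it. Depth per library was not analysed here, and the pooled lists allow no precision beyond counting error.

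The members and lists were chosen with earlier results of these data known. Percentiles were ranked within each list. Peaks were merged, and overlaps taken, from 1 bp. Shares have 95% Wilson intervals (scipy 1.17.1). Genes and TSSs came from GENCODE M21, with RefSeq added to place regions. Sequence was read from GRCm38. Named regions were those on the *Myc* and *Pvt1* TSSs, the highest by mean percentile of each zone, the highest of each single-stage class, the 3 regions called at all 4 stages with the widest range, and the 3 highest of each class of 2 or 3 stages with at least 5 regions. Scripts used Python 3.11.15, pandas 2.3.3 and numpy 2.4.6 and were tested on simulated lists. Alternatives were a −log10 q-value of at least 3, equal numbers of peaks per list, other merging (within 100 bp, or summits within 150 bp), windows, zones, heights, motif windows and promoters.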

Additional observations from a re-analysis of the deposited data

How the results depend on the processing

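Of 208 alternative values of counts, shares and ratios, 170 stayed within 1.5 times the count or within the 95% interval of the share. Among these were all values for peaks by stage, density, named regions above percentile 75 and network promoters. With equal numbers of peaks per list, the DN-only regions were 7 and the DP-only regions 14. The DN counts were then 4 upstream, 15 in the proximal desert and 8 in the BENC zone. With summits within 150 bp, DP-only regions were 16. With zones widened by 50 kb on each side, which adds sequence by construction, counts were 16 (DN), 18 (DP), 33 (SP4) and 35 (SP8) upstream, and 10, 13, 13 and 13 in the *Myc* zone. In the distal desert they were 23, 24, 25 and 28, in the mid desert 17 (DN) and 4 (SP8), and in the N-Me zone 4 (SP4). In 100 bp windows, motif shares were 2.96% (RUNX), 11.8% (ETS), 23.2% (E protein), 3.45% (GATA), 3.94% (TCF7/LEF1), 10.8% (PU.1), 5.91% (STAT), 0% (EGR), 4.93% (ROR) and 0% (CTCF). In whole regions they were 5.91% (RBPJ), 23.6% (ETS), 48.8% (E protein), 14.3% (GATA), 17.2% (STAT), 17.7% (ROR) and 1.97% (MYC/MAX), and a longer window holds more letters by construction. The cause was not tested for the other changes. Against all regions, E protein letters were less common in 200 bp windows (34.0% against 37.0%) but more common in whole regions (48.8% against 45.2%). ETS letters also changed sides, with 16.7% against 17.4% in 200 bp windows and 23.6% against 21.8% in whole regions. In 100 bp windows ETS was at 11.8% against 11.4%. In each case the share of all regions lay inside the 95% interval, so neither side is set. No paired analysis was possible because each list pools the 4 mice of a stage, and leaving out a mouse in turn could not be done.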

Other observations

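The genes at the far end of the window held different numbers of regions. The 4 gasdermin genes *Gsdmc*, *Gsdmc2*, *Gsdmc3* and *Gsdmc4* had 0 regions on a TSS at any stage, and of these *Gsdmc4* alone held regions in its body, 2, both called at all 4 stages. The part of *Fam49b* inside the window, a gene that encodes an inhibitor of Rac1 signalling, held 9 regions, of which 2 were called at DN and 3 at DP, against 5 at SP4 and 8 at SP8. Regions were densest from 100 to 200 kb downstream of the *Myc* TSS, inside *Pvt1*, where 100 kb held 29 regions, 12 called at DN and 14 at DP, against 25 at SP4 and 17 at SP8. The first region past the end of the window lay 7.09 kb from it and was called at all 4 stages.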
